A study of Oryza sativa Indica Group and Oryza sativa Japonica Group with 8 samples.

Results

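Chitinase transcripts of the young rice panicle were followed through 3 genes, Chib3H-a (LOC4351194), LOC4342115 and Cht1 (LOC4338719), out of 17905 genes with a probe set of their own on the array. They were matched by symbol or synonym in the array's probe-to-gene annotation. Each gene had 1 probe set, and all 3 probe sets passed the filter on dim signals. The genes were chosen by intensities on these arrays, with the difference between tms5 and wild type at 23 °C known, so that difference, and the temperature differences that share its arrays, are described here with no test. Tests are given for tms5 against wild type at 28 °C and for japonica against indica, and the latter averages over all 8 arrays, those at 23 °C included. Both take their spread from all 8 arrays, so neither p-value is independent of the choice of genes. The symbol Cht1 is a synonym of both LOC4338719 and LOC4342115 in that annotation. Here Cht1 means LOC4338719, which is also listed as Cht9, and LOC4342115, which is also listed as RC24, CH16 and Cht-1, keeps its identifier.

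RNA came from panicles at stages from the microspore mother cell up to meiosis, and 8 Affymetrix rice arrays were hybridised, 1 for each of 4 lines at 2 temperatures. The wild types were AnN, an indica rice, and ZH11, a japonica rice. The lines the study calls tms5 were AnS-1, an indica TGMS mutant, and Os02g12290iL1, a japonica line in which Os02g12290 was knocked down by RNA interference. Plants grew in a growth cabinet at a day average of 23 °C, called low and permissive, or of 28 °C, called high and restrictive. The 4 groups were therefore wild type at 23 °C (AnN and ZH11), tms5 at 23 °C (AnS-1 and Os02g12290iL1), and the same lines at 28 °C, with 2 arrays in each. No line had a second array at a temperature, so the number of arrays limits the precision and the p-values cover no more than the spread among these 8 samples. The knockdown was 1 line, the promoter driving it and the number of plants in a sample are not given in the sources used here, and Os02g12290 itself was not analysed here. The study asked whether RNase ZS1, a ribonuclease, takes part in mRNA metabolism.

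Chitinases are enzymes that cut chitin, the polymer of fungal cell walls and insect cuticles, which plants do not make. Many plant chitinases are pathogenesis-related proteins: they are low in unchallenged tissue and rise after infection, wounding or treatment with chitin fragments, and some are also present in flowers. Some plant proteins have the fold of a chitinase but no longer cut chitin. Chib3H-a is listed with the synonyms RIXI and XIP-I, names of rice and cereal proteins of this kind that inhibit fungal xylanases.

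The arrays lay on different scales as deposited. Their median intensities were 61.3 and 59.2 for AnN and AnS-1 at 23 °C, 141 and 139 at 28 °C, and between 109 and 117 for the 4 japonica arrays. All levels below are quantile normalized intensities, and differences are on the scale of log2(intensity + 16), which understates changes of dim probe sets. In indica, temperature and array scale cannot be told apart. As a floor for detection, the 95th percentile of 64 probe sets for foreign reporter genes was taken on each array, and it lay between 106 and 154. It covers reporter probe sets that were bright in Os02g12290iL1. A fold against a value under the floor is given as a lower bound computed against the floor. Among the tissue checks, 14 meiosis probe sets of 10 genes had summed levels per array of 5808 in AnN and 7710 in AnS-1 at 23 °C and of 3477 and 4230 at 28 °C. In japonica they were 9255 in ZH11 and 10189 in Os02g12290iL1 at 23 °C, and 8764 and 9171 at 28 °C. The sum was higher in tms5 than in wild type in each pair. The argonaute gene MEL1 ranged over the arrays from 556 in AnN at 28 °C to 2193 in Os02g12290iL1 at 23 °C. A bulk panicle array cannot tell fewer cells of a type from less RNA per cell.

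Chib3H-a had an intensity of 1288 at 23 °C and 2648 at 28 °C in AnN. In AnS-1 it read 161 at 23 °C and 877 at 28 °C. In ZH11 it read 520 at 23 °C and 491 at 28 °C, and in Os02g12290iL1 it read 56.2 at 23 °C and 530 at 28 °C. It was above the floor on 7 of 8 arrays, all but Os02g12290iL1 at 23 °C. The lowest readings were those of both tms5 arrays at 23 °C, of which AnS-1 read only 1.05 times the floor. The difference at 23 °C was known when the gene was chosen, so nothing is read from this order. Os02g12290iL1 at 28 °C and the ZH11 arrays lay close together, and no spread is available to order them.

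LOC4342115, a chitinase whose synonym RC24 is the name of a rice endochitinase, was dim in indica at 23 °C. It read 104 in AnN and 17.2 in AnS-1, both under the floor. At 28 °C it read 596 in AnN and 301 in AnS-1. In ZH11 it read 410 at 23 °C and 434 at 28 °C, and in Os02g12290iL1 it read 57.9 at 23 °C and 1288 at 28 °C. Os02g12290iL1 therefore held its highest level, at 28 °C, and a reading under the floor, at 23 °C. Of 8 arrays, 5 were above the floor, and the order of the readings under it is not interpreted.

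Cht1 was under the floor in both indica lines at 23 °C, with 42.7 in AnN and 54.3 in AnS-1. At 28 °C it read 282 in AnN and 155 in AnS-1. In ZH11 it read 212 at 23 °C and 511 at 28 °C, and in Os02g12290iL1 it read 123.2, under the floor, and 608. The reading at 28 °C was the higher one in each line, and 3 of the 4 readings at 23 °C were under the floor. At 28 °C both japonica arrays read above both indica arrays.

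**Figure D1:**
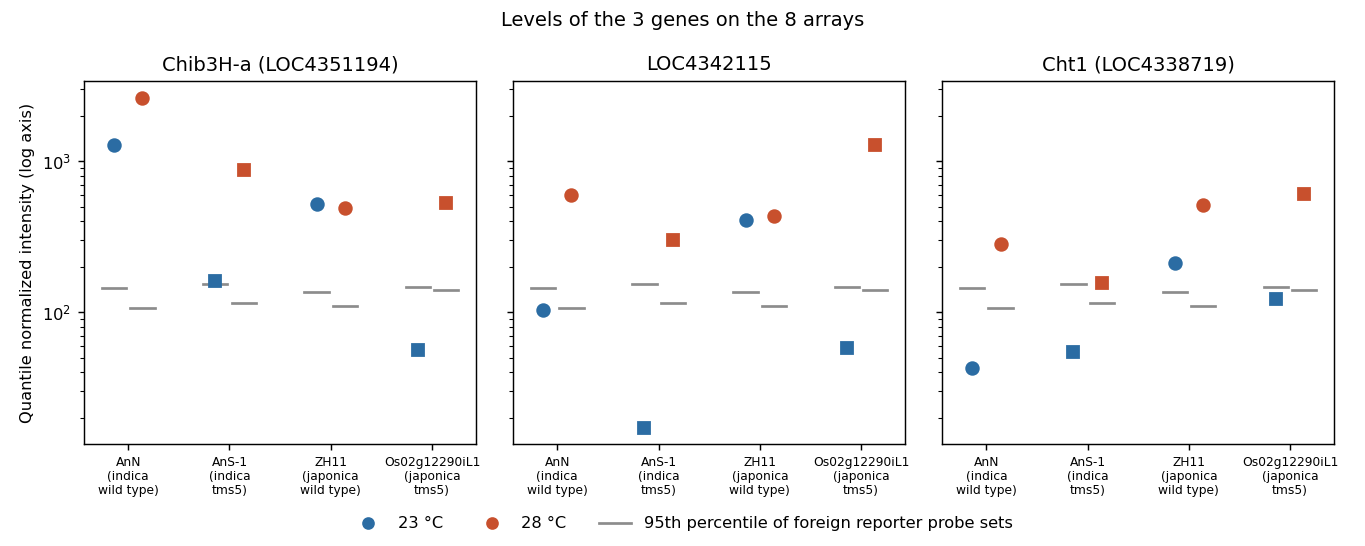
Quantile normalized intensity (log axis) of Chib3H-a, LOC4342115 and Cht1 on each of the 8 arrays. Each point is 1 array, coloured by temperature, circles are wild type and squares tms5, and the grey line beside it is the 95th percentile of the foreign reporter probe sets on that array. At 23 °C Chib3H-a lies at 1288 in AnN against 161 in AnS-1 and at 520 in ZH11 against 56.2 in Os02g12290iL1, while at 28 °C ZH11 (491) and Os02g12290iL1 (530) lie side by side.

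At 23 °C, the temperature called permissive, Chib3H-a and LOC4342115 were lower in both tms5 lines than in the wild type of the same background, and Cht1 was not. In indica Chib3H-a was 7.99-fold below AnN in AnS-1 (-2.88 on the log2 scale), and in japonica at least 3.53-fold below ZH11 in Os02g12290iL1 (-2.89). The mean of both differences was -2.89 ± 0.0087 (SD, n = 2). The small SD does not measure agreement, since the japonica difference uses a value under the floor. The mean was -3.09 with a pseudocount of 1 and -2.43 with 64. LOC4342115 in Os02g12290iL1 was at least 2.79-fold below ZH11 (-2.53). In indica its difference was -1.86, with both arrays under the floor, so no fold is given there, and the mean was -2.19 ± 0.48 (SD, n = 2). Cht1 differed by 0.26 in indica, again with both arrays under the floor, and by -0.71 in japonica, at least 1.44-fold, with a mean of -0.23 ± 0.69 (SD, n = 2).

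These are the values that chose the genes, so nothing is read from their count against all probe sets. Chib3H-a was past 2-fold lower in both backgrounds, also against the floor. LOC4342115 was so in japonica, with no fold in indica. With no floor applied, 119 of 34317 tested probe sets, or 0.347%, were past 2-fold lower in both. The shares of all probe sets past that fold were 3.73% in indica and 0.816% in japonica taken alone.

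At 28 °C, the temperature called restrictive, each of the 3 genes read lower in AnS-1 than its AnN value and higher in Os02g12290iL1 than its ZH11 value. Chib3H-a was 3.02-fold lower in AnS-1 (-1.58), with 143 tested probe sets lower still, and 1.08-fold higher in Os02g12290iL1 (0.11). LOC4342115 was 1.98-fold lower in AnS-1 (-0.95) and 2.97-fold higher in Os02g12290iL1 (1.54), where 61 probe sets were higher still. Cht1 was 1.81-fold lower in AnS-1 (-0.80) and 1.19-fold higher in Os02g12290iL1 (0.24). None of the 3 was 2-fold lower in both backgrounds, as 0.487% of all tested probe sets were. Of all probe sets 0.988% were past 2-fold lower in indica, as Chib3H-a was, and 0.586% past 2-fold higher in japonica, as LOC4342115 was. A difference that was below 0 in indica and above 0 in japonica was seen for 6849 of the 34317 tested probe sets, or 20%. The differences of the backgrounds had no test of their own, since each rests on 1 array a side.

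Over both backgrounds, none of the 3 genes passed the test at 28 °C with limma, fitted to all 8 arrays with background as a block and adjusted by Benjamini-Hochberg over all tested probe sets. Chib3H-a differed by -0.74 on the log2 scale (SE 0.40, SD of the 2 differences 1.19, adjusted p = 0.999982). LOC4342115 differed by 0.29 (SE 0.62, SD 1.76, adjusted p = 0.999982), and Cht1 by -0.28 (SE 0.34, SD 0.74, adjusted p = 0.999982). Limma called 0 of 34317 probe sets in this comparison, 0%, and 405 had an unadjusted p under 0.05. The signs of LOC4342115 and Cht1 depended on single arrays: LOC4342115 moved to -0.77 without ZH11 at 28 °C and to -0.30 without Os02g12290iL1 at 28 °C, and Cht1 moved to 0.11 without AnN and to 0.03 without AnS-1 at 28 °C. Chib3H-a moved to between -1.38 and -0.09 as single arrays were left out.

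**Figure D2:**
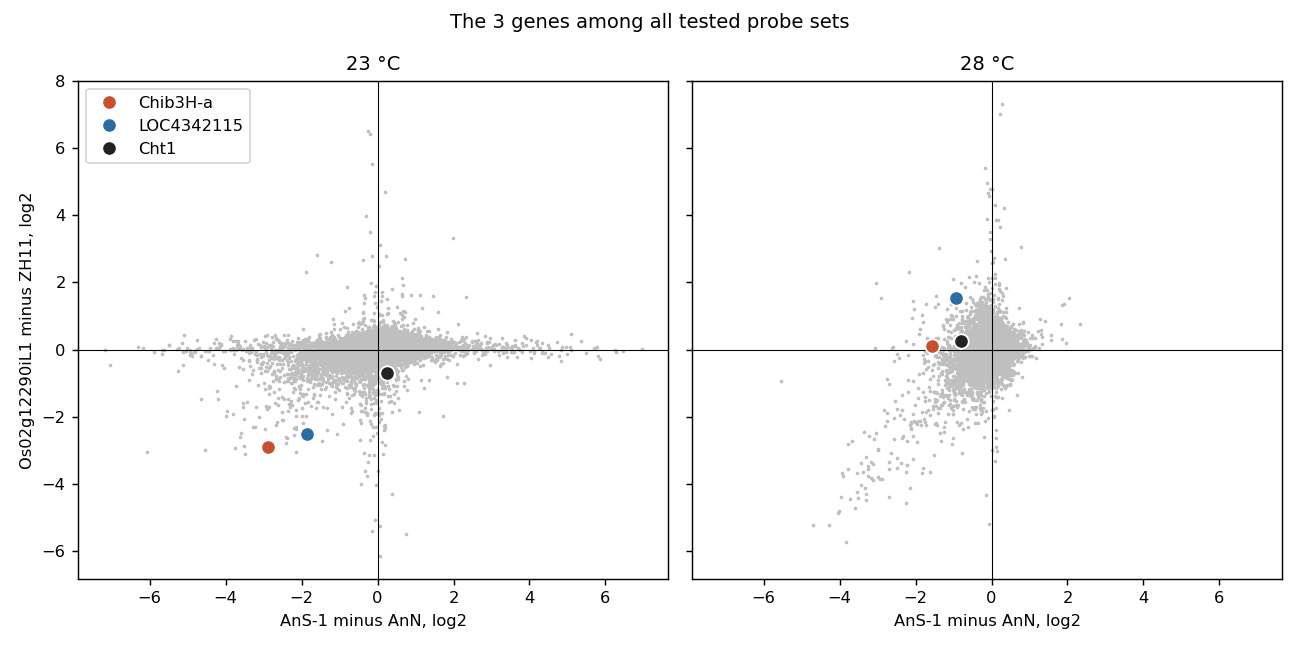
Difference between tms5 and wild type, log2(intensity + 16), in indica (horizontal axis) and in japonica (vertical axis) at 23 °C (left) and 28 °C (right), with 1 grey point for each of the 34317 tested probe sets. Chib3H-a (-2.88, -2.89) and LOC4342115 (-1.86, -2.53) lie in the lower left at 23 °C, and all 3 genes lie in the upper left at 28 °C.

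From 23 to 28 °C, all 3 genes were more than 2-fold higher in Os02g12290iL1, also against the floor, and Cht1 alone was in ZH11. In both indica lines Chib3H-a was above 2-fold, and the others rested on 23 °C values under the floor. Chib3H-a was 2.06-fold higher in AnN (1.03 on the log2 scale) and 5.44-fold higher in AnS-1 (2.33). It was at least 3.60-fold higher in Os02g12290iL1 (2.92), and the difference in ZH11 was -0.078. LOC4342115 was at least 4.13-fold higher in AnN (2.35), at least 1.96-fold higher in AnS-1 (3.26) and at least 8.75-fold higher in Os02g12290iL1 (4.14), while ZH11 differed by 0.078. Cht1 was at least 1.95-fold higher in AnN (2.34), 2.41-fold higher in ZH11 (1.21) and at least 4.13-fold higher in Os02g12290iL1 (2.16). In AnS-1 its difference was 1.29, but its 28 °C value lay only 1.01-fold above the 23 °C floor.

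The means of these temperature differences over both tms5 lines were 2.63 ± 0.42 for Chib3H-a, 3.70 ± 0.62 for LOC4342115 and 1.73 ± 0.62 for Cht1 (SD, n = 2 each). In wild type they were 0.48 ± 0.78, 1.21 ± 1.61 and 1.78 ± 0.80 (SD, n = 2 each). The wild type means of Chib3H-a and LOC4342115 hid unlike lines, since the differences in ZH11 were -0.078 and 0.078. The median of all tested probe sets was -0.10 in AnN, -0.13 in AnS-1, -0.0018 in ZH11 and -0.0058 in Os02g12290iL1. The indica folds moved with the scale: on the values as deposited, Chib3H-a was 3.95-fold higher in AnN and 12.2-fold in AnS-1. Against the floor of that scale LOC4342115 was at least 9.36-fold and 4.35-fold higher, and Cht1 at least 4.35-fold and 2.24-fold. The bounds on the deposited scale were chosen after seeing the data. The japonica arrays shared 1 scale.

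With no floor applied, a log2 difference of at least 1 toward 28 °C was found in AnN for 10.7% of the 34317 tested probe sets, in AnS-1 for 11.7%, in both for 8.07%, in Os02g12290iL1 for 0.851% and in ZH11 for 0.42%. These shares are background, from which nothing is read about genes whose 23 °C values chose them. DMC1, a recombinase gene of meiosis, differed by -1.13, -0.86, -1.57 and -1.40 in AnN, AnS-1, ZH11 and Os02g12290iL1, and the part of stage in the chitinase differences was not tested. The comparisons between genotypes and between temperatures share arrays: the low 23 °C values of the tms5 lines enter both.

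Between the backgrounds, Chib3H-a was lower and Cht1 higher in japonica. Chib3H-a differed in the 4 pairs of matched genotype and temperature by -1.28, -2.39, -1.30 and -0.71 for wild type at 23 and 28 °C and tms5 at 23 and 28 °C. Os02g12290iL1 at 23 °C was under the floor. The mean was -1.42 (SE 0.28, SD 0.70 over 4 pairs, limma adjusted p = 0.0220). Cht1 had differences of 1.96, 0.82, 0.99 and 1.86 in the same order, with a mean of 1.41 (SE 0.24, SD 0.59, limma adjusted p = 0.0145). Both 28 °C pairs were above the floor, but AnN at 23 °C and both tms5 arrays at 23 °C were under it, so the test rests in part on undetected values. LOC4342115 had positive differences in 3 pairs (1.83, 1.16 and 2.04), of which that of tms5 at 23 °C (1.16) had both arrays under the floor, and was lower in wild type at 28 °C (-0.45). Its mean of 1.14 (SE 0.44, SD 1.12, limma adjusted p = 0.112) did not pass the test. The 23 °C arrays whose values chose the genes enter these tests, so the p-values are not independent of that choice.

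In this comparison limma called 9496 of 34317 probe sets, 27.7%, of which 12.9% of all were higher and 14.8% lower in japonica, so calls were common. The split turned with scaling, with 2070 higher and 918 lower on the values as deposited and 3631 and 6372 with median centring. The call for Chib3H-a was lost on the values as deposited (adjusted p = 0.114) and without any one of the 4 arrays at 23 °C (0.0598 to 0.0743). The call for Cht1 was lost without AnN or ZH11 at 23 °C (0.0540 and 0.0535) or AnS-1 or Os02g12290iL1 at 28 °C (0.0610 and 0.0640). LOC4342115 passed without AnN or ZH11 at 28 °C (0.0180 and 0.0200). A probe matches the allele it was designed on, and sequence differences between the backgrounds were not analysed here.

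Across the 8 arrays the log2 levels of Cht1 and LOC4342115 correlated most (r = 0.86), then Chib3H-a and LOC4342115 (0.58), then Chib3H-a and Cht1 (0.19). After the mean of each background was removed these became 0.87, 0.90 and 0.68. The arrays share lines, growth temperatures and scales, and the values are descriptions without a test.

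By the same measure, the named genes most like Chib3H-a over 8 arrays were MIF1 (0.96), the monosaccharide transporter gene MST3 (0.94), and JAMYB, JAZ7 and ABCG44 (0.93 each). JAMYB is a MYB gene induced by jasmonate, and JAZ7 belongs to the jasmonate repressor family. LOC4342115 was most like OsZIP1 and GER2 (0.93 each), Cht3 and OsPP2C29 (0.90 each) and APRL3 (0.89). Cht1 was most like ML2 (0.96), 6PGDH2, Cht3 and MOCS2A (0.94 each) and the alternative oxidase gene AOX1 (0.93). Cht3 is listed as CH6 there, and over 8 arrays was among the genes most like both LOC4342115 and Cht1. After the mean of each background was removed, Chib3H-a was most like HOX12 and ML (0.96 each), then MIF1, MS and MYBS2 (0.95 each). JAMYB and JAZ7 were not among these. LOC4342115 was then most like KCO1 (0.98), MST3 and Cht3 (0.97 each), GER2 (0.94) and HSF06 (0.93). For Cht1 they were MOCS2A and TCTP (0.94 each), and CCS, KCO1 and MAN6 (0.93 each). The candidates numbered 2688, and some readings of the 3 genes were under the floor.

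The other chitinase genes were read beside them: 11 genes with 14 probe sets, of which 9 probe sets of 7 genes passed the filter on dim signals. Limma called none of the 9 in either genotype comparison or either temperature comparison, where 0% of all probe sets were called, and 738, 2057 and 1829 probe sets had an unadjusted p under 0.05 at 23 °C, for temperature in wild type and for temperature in tms5. At 23 °C the medians of the 9 were -0.41 in indica and -0.42 in japonica, against 0.02 and 0.02 for all tested probe sets. Of the 9, 6 had differences below 0 in both backgrounds, as 26.6% of all tested probe sets did, and none was past 2-fold in both. No floor was applied to this count. Among the 6, both Cht3 probe sets had both indica arrays under the floor at 23 °C. Chib3H-h and a Cht8 probe set had both japonica arrays under it. At 28 °C all 9 had differences below 0 in AnS-1, from -1.18 to -0.25, where 40.4% of all tested probe sets did. In japonica 3 of the 9 did, where 48.2% of all tested probe sets did, and the median of the 9 was 0.02.

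Cht3 (LOC4342114) stands next to LOC4342115 in the gene order of the reference table (assembly ASM3414082v1), and its probe sets are of a type that may share probes with related genes, so its values are uncertain. One of them read 51.7 in AnN, 34.1 in AnS-1, 214 in ZH11 and 122 in Os02g12290iL1 at 23 °C, and 165, 120, 225 and 470 at 28 °C. The other read 57.6, 39.2, 169 and 36.0 at 23 °C and 155, 59.9, 184 and 446 at 28 °C. As for LOC4342115, the highest array of both was Os02g12290iL1 at 28 °C. Both differed from ZH11 at 28 °C by over 1 on the log2 scale (1.01 and 1.20).

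Cht7 (LOC4338720), next to Cht1 in the same gene order, had no such high value in Os02g12290iL1. It read 1625 in AnN, 434 in AnS-1, 5553 in ZH11 and 4927 in Os02g12290iL1 at 23 °C, and 4131, 2965, 6422 and 6065 at 28 °C. AnS-1 at 23 °C stood lowest. The tested probe set of Cht8 (LOC4349267) of the type not shared with other genes read 170 in AnN and 35.4 in AnS-1 at 23 °C. It read 887 and 523 there at 28 °C, but only between 18.2 and 49.7 in the japonica lines. Its other tested probe set, not of that type, read 139 and 115 in AnN and AnS-1 at 23 °C. That probe set read 842 and 468 at 28 °C. In japonica it read 142 to 160, under the floor there only in Os02g12290iL1 at 23 °C. An untested probe set read 24.0 and 28.2 in indica at 23 °C and 76.7 to 90.8 in japonica. The Cht8 level in japonica and its 23 °C difference in indica thus depended on the probe set. Rcb4 (LOC4348631) read 91.5 to 608 over the 8 arrays, with 28 °C differences of -0.45 in indica and -0.13 in japonica. Chib3H-h (LOC4351187), a relative of Chib3H-a in the same stretch of genes, read 184 and 45.1 in AnN and AnS-1 at 23 °C, 989 and 427 at 28 °C, and 67.6 to 103 in japonica.

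**Figure D3:**
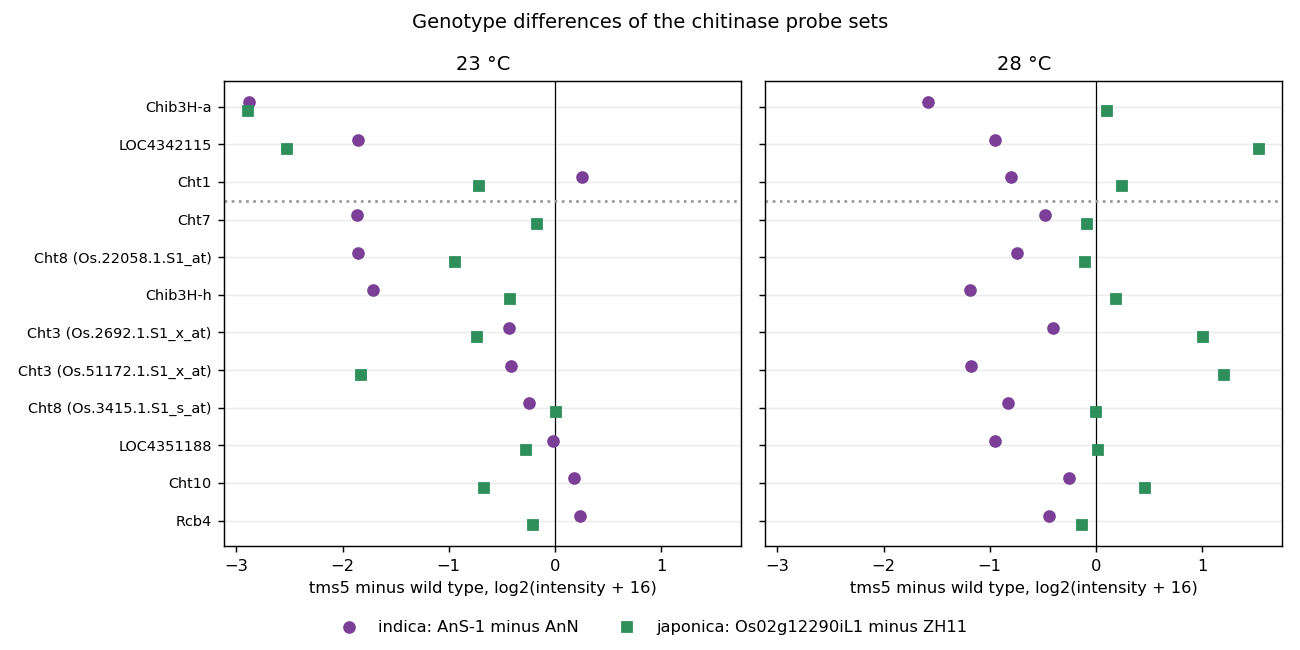
Difference between tms5 and wild type, log2(intensity + 16), for the 3 genes (above the dotted line) and the 9 tested probe sets of other chitinases at 23 °C (left) and 28 °C (right). Each point is 1 array minus 1 array, circles for indica and squares for japonica. At 28 °C every circle is below 0, and the squares of LOC4342115 (1.54) and of both Cht3 probe sets (1.01 and 1.20) lie farthest to the right.

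From 23 to 28 °C, 7 of the 9 other probe sets had log2 differences of at least 1 in AnN, where 10.7% of all did, and 6 in AnS-1, where 11.7% did, with no floor applied. In Os02g12290iL1 2 did and in ZH11 0, where 0.851% and 0.42% of all did. In both indica lines 6 did, where 8.07% of all did. Their medians were 1.41 in AnN, 1.86 in AnS-1, 0.07 in ZH11 and 0.51 in Os02g12290iL1. In Os02g12290iL1 the 2 were the Cht3 probe sets, with 1.81 and 3.15. Between backgrounds, limma called the Cht3 probe set with 1.81 higher in japonica (adjusted p = 0.0203). Limma also called the tested Cht8 probe set of the type not shared with other genes lower in japonica (adjusted p = 0.0450). The other tested probe set of each gene was not called, with 1.02 for Cht3 (0.166) and -0.85 for Cht8 (0.229).

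**Figure D4:**
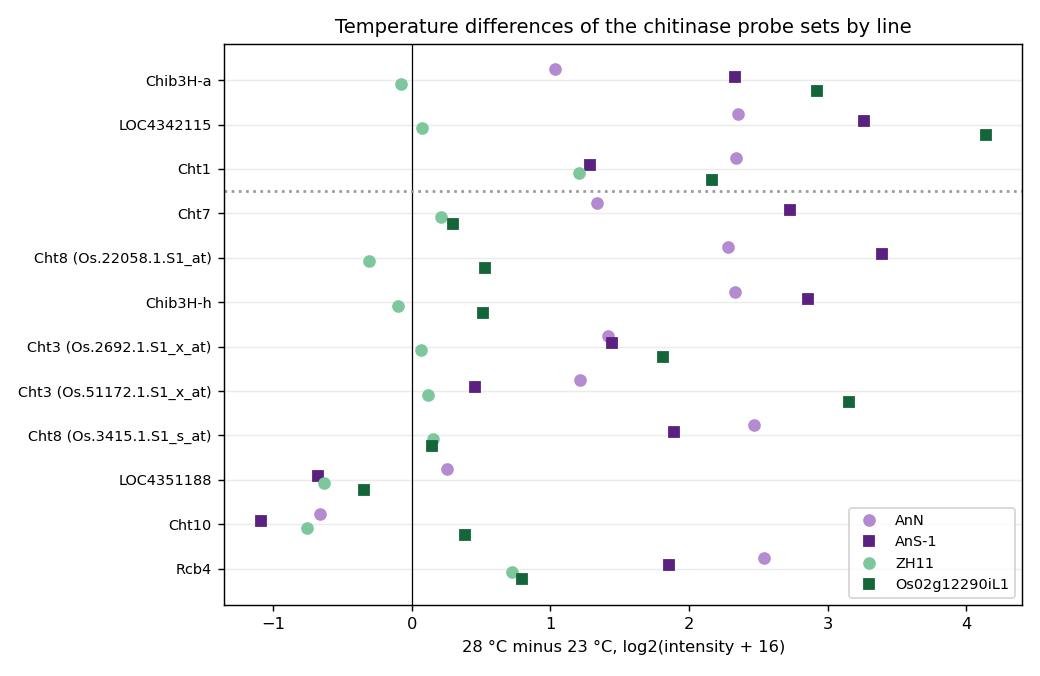
Difference between 28 and 23 °C, log2(intensity + 16), for the same probe sets in each of the 4 lines, 1 point per line. In ZH11 Cht1 (1.21) is the highest point, and in Os02g12290iL1 the 3 genes (2.16 to 4.14) and Cht3 (1.81 and 3.15) lie above 1 while the rest lie below.

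Near Chib3H-a, the unnamed gene LOC4351197, which lies 2 genes away in the reference order and was singled out after its values were seen, read 374 in AnN, 25.4 in AnS-1, 223 in ZH11 and 32.6 in Os02g12290iL1 at 23 °C. At 28 °C it read 2340, 1237, 255 and 404. Like Chib3H-a, it was lowest in the tms5 arrays at 23 °C, where both of its readings were under the floor. LOC4351198, LOC4351191 and Chib3H-h, also near Chib3H-a, were lowest on the same arrays, likewise under the floor. The other probe sets within 10 genes of Chib3H-a were not.

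Genes that sense chitin or carry its signal were listed too, with 14 tested probe sets of 13 genes. Limma called 0 of them in the genotype and temperature comparisons, and their 28 °C medians were 0.04 in indica and 0.02 in japonica. CEBIP, the receptor that binds chitin fragments, differed by 0.01 and 0.43, and the mitogen-activated protein kinase gene BIMK1 by 0.01 and 1.11. MAPK6 (LOC4339633), of the same kinase class, differed by 0.13 and 0.12. Another gene listed as MAPK6 (LOC4340170) differed by -0.04 and 0.01. Of 9 probe sets of defence regulators, 0 were called either, with 28 °C medians of -0.24 and 0.08. The only other pathogenesis-related gene matched was PBZ1, a probenazole-inducible gene named here after its values were seen. It read 314 in AnN, 172 in AnS-1, 400 in ZH11 and 221 in Os02g12290iL1 at 23 °C, and 4565, 2590, 122.7 and 536 at 28 °C. Its 28 °C differences were -0.81 and 1.99, so like LOC4342115 it was below 0 in indica and above 0 in japonica.

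Jasmonate synthesis and response genes gave 31 tested probe sets of 29 genes, with 0 called in the genotype and temperature comparisons. At 23 °C 18 of them had differences below 0 in both backgrounds, where 26.6% of all tested probe sets did, with medians of -0.28 and -0.09, and at 28 °C the medians were -0.10 and 0.08. JAMYB read 667 and 58.7 in AnN and AnS-1 and 117 and 24.7 in ZH11 and Os02g12290iL1 at 23 °C. Of these only the AnN reading was above the floor. At 28 °C it differed by -1.21 in indica and -1.02 in japonica, where the Os02g12290iL1 reading was under the floor. The lipoxygenase gene LOX1.1 differed by -0.44 and -1.76 at 28 °C, and OPR-1, of the oxophytodienoate reductase family, by -1.32 and -0.33. Both tms5 readings of OPR-1 at 28 °C were under the floor.

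Summed levels of tapetum and leaf markers were also lower in tms5, except for the leaf markers in indica at 28 °C. The summed level of 9 tapetum probe sets was 9232 in AnN and 7717 in AnS-1, and 30170 in ZH11 and 21783 in Os02g12290iL1, at 23 °C. At 28 °C it was 19141 and 8639, and 29025 and 16691. It was lower in tms5 in each of the 4 pairs, and 6 of the 9 probe sets were so in both backgrounds at each temperature, beside 26.6% of all tested probe sets at 23 °C and 20.4% at 28 °C. The tapetum lipid transfer gene C6 was near 0 in indica at 23 °C, with 17.8 in AnN and 8.85 in AnS-1, and read 7438 and 708 there at 28 °C. The summed level of 10 leaf photosynthesis probe sets was 16921 in AnN and 9332 in AnS-1 at 23 °C, and 8979 and 9076 at 28 °C. In ZH11 and Os02g12290iL1 it was 8480 and 7889 at 23 °C, and 7254 and 4247 at 28 °C. Most of the leaf sum of AnN at 23 °C lay in both probe sets of CAB2R, at 7312 and 5231. At 28 °C these read 3926 and 1311 in ZH11, and 2030 and 478 in Os02g12290iL1. In that pair the tested OsrbcS probe sets differed by 0.02 and 0.13, while those of GOS5 and OSA15 were below 0. The leaf sums thus do not show a change of the whole list. Limma called 0 of the 9 tapetum, 7 tested leaf and 13 tested meiosis probe sets in either genotype comparison. The part of these markers in the chitinase differences was not tested.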

How the data were processed

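Total RNA was isolated with a Qiagen RNeasy kit and labelled as biotinylated cRNA, per the labels' protocols. The authors deposited an intensity for each probe set on each array. The submitters' processing notes name RMA and Affymetrix Expression Console, without versions. Although RMA output is commonly on a log2 scale, the numbers deposited are linear intensities on 3 scales, and the unit follows from their range. All 8 value columns were used. A probe table tied 22436 probe sets to 1 gene, 95 to several and 34727 to none; the RefSeq gene table held all 22436 and was used for names and gene order.

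The 57258 probe sets were quantile normalized and 64 foreign reporter probe sets then left out, leaving 57194. The upper 60% by mean, 34317, were tested as log2(intensity + 16) with limma 3.58.1 in R 4.3.3: group means, background as a block, empirical Bayes (3 residual and 2.16 prior degrees of freedom), two-sided, Benjamini-Hochberg adjusted p under 0.05. The code was tested on simulated data. The genes and lists were chosen with earlier results of these data known. Lists were matched by symbol or synonym, and genes caught by an unrelated synonym were left out by identity. No beta-1,3-glucanase gene was matched. From each list the text names up to 3 genes with the largest mean change at 28 °C of the same sign in both backgrounds, every tested chitinase counting for ranges, and for likeness the 5 highest correlations; exceptions are stated. Replicate numbers follow accession order and pair nothing. Alternatives were the values as deposited, median centring, other filters, pseudocounts of 1 and 64, other blocks, only the 4 arrays of a comparison, and each array left out. Promoters and sequences were not analysed here.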

Additional observations from a re-analysis of the deposited data

Results flagged for a closer look

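Some differences had opposite signs in the backgrounds. None of these differences between backgrounds was tested, because each background has 1 array per line and temperature. At 28 °C, tms5 minus wild type on the log2 scale was -1.58 in indica and 0.11 in japonica for Chib3H-a, -0.80 and 0.24 for Cht1, and -0.95 and 1.54 for LOC4342115. At 23 °C it was 0.26 in indica and -0.71 in japonica for Cht1. From 23 to 28 °C in wild type, Chib3H-a differed by 1.03 in AnN and by -0.078 in ZH11.

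Signal also appeared in probe sets for foreign reporter genes, on the arrays of the knockdown line. These probe sets were left out of all tests, but they are among the 64 behind the floor for the lower bounds. RPTR-Os-A06498-1_at read 2281 at 23 °C and 2836 at 28 °C in Os02g12290iL1, and at most 76.1 on the other 6 arrays. RPTR-Os-K01193-1_at read 3075 and 3222 there, and at most 30.9 on the others.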

How the results depend on the processing

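In the comparison at 28 °C, limma called 0 probe sets with all 8 arrays, 137 (4 higher, 133 lower) when only the 4 arrays of the comparison were fitted, and 3 with the array set as block. In japonica minus indica it called 2988 on the values as deposited, and 3767 to 6793 without single arrays, against 9496. Without single arrays it called 0 to 33 at 23 °C and 0 to 29 for temperature in tms5, where all arrays gave 0. The 119 probe sets past 2-fold lower in both backgrounds at 23 °C became 334 at 1.5-fold and 52 at 3-fold. Leaving out single arrays also turned signs. At 28 °C Cht1 ran from -0.66 to 0.11, with 0.11 without AnN and 0.03 without AnS-1, and LOC4342115 from -0.77 to 1.35, with -0.77 without ZH11 and -0.30 without Os02g12290iL1. At 23 °C Cht1 ran from -0.59 to 0.14, with 0.14 without ZH11 and 0.06 without Os02g12290iL1. Chib3H-a in wild type ran from -0.17 to 1.12 between temperatures, with -0.17 without AnN at 28 °C. Leaving out an array left 1 in its group, taken to have the spread of the other groups; the cause of the changed counts was not tested. The fit paired the lines through the background block, and without it limma called 0 probe sets in each genotype and temperature comparison. The labels carry no replicate numbers to pair on. A floor without the 2 reporter probe sets bright in Os02g12290iL1, chosen after seeing the data, moved the Os02g12290iL1 bound of LOC4342115 between temperatures from 8.75 to 9.27, and the 28 °C value of Cht1 in AnS-1 then lay under the 23 °C floor (0.991 of it). Each gene has 1 probe set, so the alternative of probe sets apart was not run. Under the floor, signal limits what levels can show.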
